A study of Mus musculus with 91 samples.

Results

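The 8 genes described here are used to tell apart the principal projection neurons of the nucleus accumbens, the spiny neurons that carry either the D1 or the D2 dopamine receptor. They were taken by identifier from the 14355 genes of the deposited count table: 5 linked to D1 neurons, namely Slc35d3, Isl1, Eya1, Sfxn1 and Ebf1, and 3 linked to D2 neurons, namely Gpr6, Sp9 and Ptprm. All 8 members were present. The data were 91 libraries of ribosome-bound mRNA from the nucleus accumbens of mice over 10 weeks old, kept in 12 h of light and 12 h of dark. Drd1-Cre mice (D1 libraries) or A2a-Cre mice (D2 libraries) had been crossed to RiboTag mice, in which Cre switches on a hemagglutinin-tagged Rpl22 ribosomal protein, and tissue of 2 mice was pooled per library. Males and females were sampled at 6 times of day, written ZT for hours after lights on, at ZT 2, 6, 10, 14, 18 and 22, in 24 groups of 3 or 4 libraries. The 45 D1 libraries came from 23 female and 22 male pools, and the 46 D2 libraries from 23 pools of each sex. Every D1 library came from one Cre line and every D2 library from the other, so cell type and mouse line cannot be told apart. The pull-down reads mRNA on ribosomes of all cells in which the Cre line was active, and in such pooled material fewer cells of a type and less RNA per cell cannot be told apart.

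D1 neurons project mainly to the midbrain and D2 neurons mainly to the ventral pallidum, and their balance shapes motivated movement and reward learning. The transcription factors among the 8 genes act in development, when the lineages separate. Isl1 and Ebf1 have been linked to the direct pathway (D1) lineage, and Sp9 is needed for D2 neurons to form. Slc35d3 is a membrane protein known for carrying the D1 receptor toward the cell surface, Sfxn1 is a mitochondrial serine transporter, Eya1 is a transcriptional coactivator with phosphatase activity, Gpr6 is an orphan receptor that raises cAMP, and Ptprm is a receptor-type tyrosine phosphatase that mediates adhesion between cells.

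The promoter windows of 3 genes, chosen with earlier results of these data known, are shown. Slc35d3 was the member most enriched in D1 libraries and Gpr6 the one most enriched in D2 libraries. Sp9 rose and fell with Gpr6 across D2 libraries, as did Ptprm, whose window is not shown. Each window runs from 250 bases before the start site to 50 after it, 5′ to 3′ along the gene, from RefSeq on GRCm38.p6. Slc35d3 is at chr10:19851410-19851709 on the minus strand, Gpr6 at chr10:41072241-41072540 on the minus strand, and Sp9 at chr2:73271676-73271975 on the plus strand. The start site used for Slc35d3 lies inside the span of the gene, chr10:19847917-19856634, and not at its 5′ end. Capitals mark matches to any of 5 motifs, searched on both strands: the GC box GGGCGG, the Ebf core CCCNNGGG, the homeodomain core TAATTA, the E-box CACGTG and the TATA box TATAAA.
Slc35d3: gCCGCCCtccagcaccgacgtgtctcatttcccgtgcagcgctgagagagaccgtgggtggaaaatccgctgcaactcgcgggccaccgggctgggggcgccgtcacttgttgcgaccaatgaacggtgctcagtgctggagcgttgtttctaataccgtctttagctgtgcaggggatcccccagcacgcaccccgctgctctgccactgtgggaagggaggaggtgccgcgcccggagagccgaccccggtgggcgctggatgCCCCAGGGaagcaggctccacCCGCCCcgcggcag
Gpr6: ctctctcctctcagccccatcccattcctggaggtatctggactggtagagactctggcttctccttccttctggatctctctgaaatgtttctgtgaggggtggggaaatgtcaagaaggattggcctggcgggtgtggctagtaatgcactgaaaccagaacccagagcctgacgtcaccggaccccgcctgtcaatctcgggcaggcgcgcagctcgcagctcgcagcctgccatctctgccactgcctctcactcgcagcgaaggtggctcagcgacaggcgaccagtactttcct
Sp9: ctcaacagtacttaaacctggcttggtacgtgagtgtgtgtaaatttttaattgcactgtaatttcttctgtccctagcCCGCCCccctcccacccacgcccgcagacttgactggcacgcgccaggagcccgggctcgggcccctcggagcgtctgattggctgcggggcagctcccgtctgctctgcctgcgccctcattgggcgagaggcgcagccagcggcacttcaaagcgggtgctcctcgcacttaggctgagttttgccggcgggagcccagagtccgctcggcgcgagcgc

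The Slc35d3 window held 3 matches, 2 GC boxes and 1 Ebf core, none overlapping another. The Sp9 window held 1 GC box, 171 bases before the start site, and in the Gpr6 window these letters did not occur. Among all 32851 windows of this length, 35.7% held the GC box, 13.7% the Ebf core, 5.29% the homeodomain core, 7.15% the E-box and 13.6% the TATA box. The G and C content was 67.7% for Slc35d3, 58.7% for Gpr6 and 63.7% for Sp9, against a median of 52.7% over all windows. A match is a description of the letters and no evidence of binding. Of the 8 genes 7 had a window in that table. Slc35d3 and Gpr6 both lie on chromosome 10, and Isl1 and Sfxn1 both on chromosome 13.

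Total counts ranged from 6872165 to 24665262 per library. Library titles carry letters (A to E) that number the replicates of a group, with no further meaning stated by the labels. In D2 libraries the letter went with depth: total counts were 14225115 to 24665262 for letter A, 10783444 to 23735861 for B, 8965613 to 14606921 for C and 6872165 to 13012978 for D. 3 male D1 libraries stood apart by their number of genes at 0: ZT10 B with 789, ZT22 B with 722 and ZT18 D with 205, against at most 3 in any other library. By median distance to their group, some D2 libraries of letter A lay as far out. Classical markers of the labelled cell types and of other cells were not scored here, since the file gives genes only as Ensembl identifiers. Levels below are CPM, the counts of a gene scaled to TMM-adjusted library totals.

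Which of the 8 genes separated D1 from D2 libraries was asked first. 6 of them did so in the direction of their label. Slc35d3, Sfxn1 and Isl1 were higher in D1 libraries, between 1.88-fold and 4.26-fold, and Gpr6, Sp9 and Ptprm were higher in D2 libraries, between 1.85-fold and 4.05-fold. The other 2 did not: Ebf1 was slightly higher in D2 libraries, and Eya1 did not pass the test. Over all genes, edgeR's quasi-likelihood test with Benjamini-Hochberg adjustment called 19.3% at a threshold of 0.05, 9.44% as higher in D1 and 9.86% as higher in D2. The median difference of the D1-linked genes was 0.91 on the log2 scale and that of the D2-linked genes -1.14, against -0.01 over all genes. The members were chosen with earlier results of these data known, so agreement with their labels is no independent evidence. A fit that blocked the letter within cell type called 45.8% of all genes and changed no call of the 8.

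**Figure D1:**
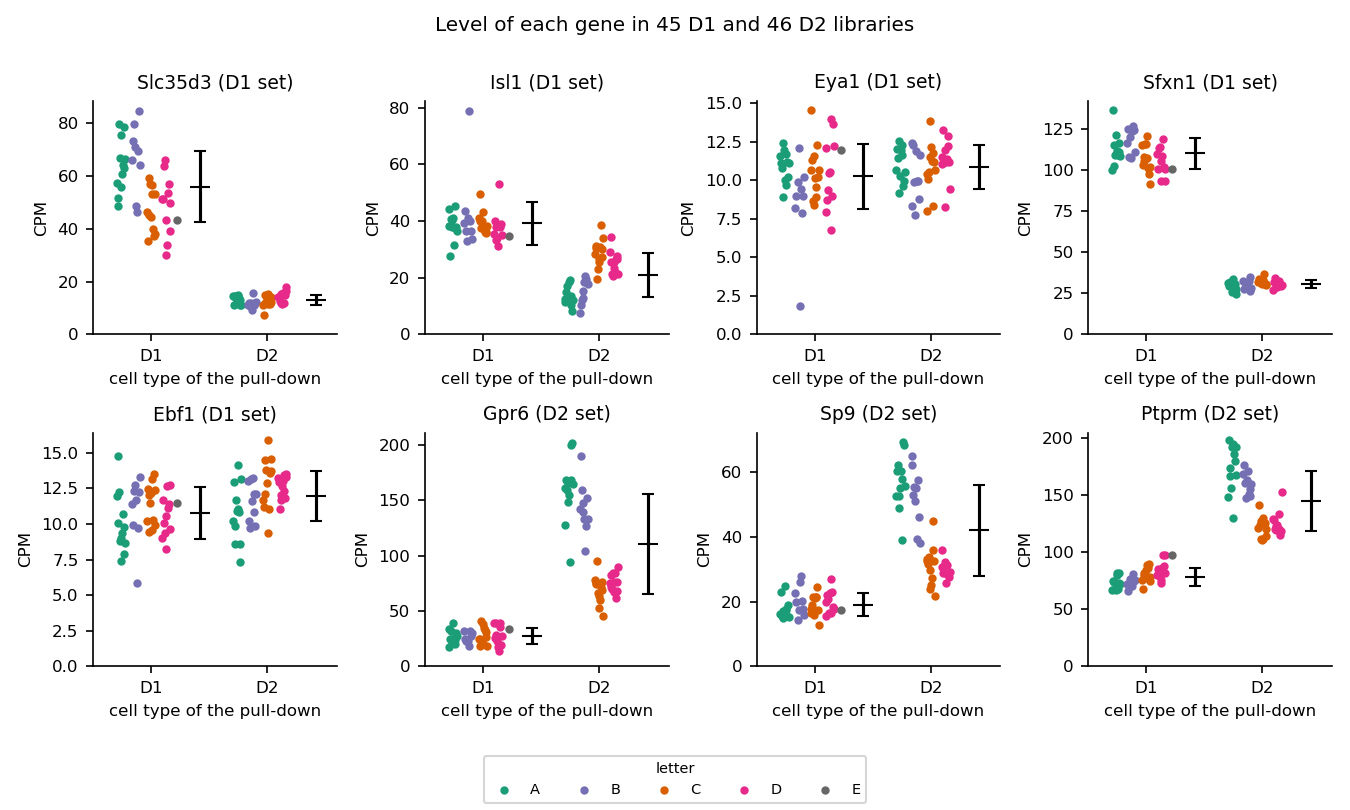
Level of each of the 8 genes in CPM, 1 point per library, with D1 libraries (n = 45) on the left of each panel, D2 libraries (n = 46) on the right and the letter as colour; black bars are mean ± SD. Slc35d3, Sfxn1, Gpr6 and Ptprm show no overlap between cell types, Eya1 and Ebf1 overlap almost wholly, and the D2 points of Gpr6, Sp9, Ptprm and Isl1 split by letter.

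Slc35d3 (ENSMUSG00000050473, chr10:19847917-19856634) ran from 29.9 CPM in the lowest D1 library through a median of 56.0 to 84.8 in the highest (56.0 ± 13.5, SD, n = 45). In D2 libraries it ran from 7.31 CPM through 12.5 to 18.0 (13.0 ± 2.07, SD, n = 46). Every D1 library thus lay above every D2 library, a separation that 0.265% of all genes showed. The difference was 2.09 ± 0.06 on the log2 scale (SE), a 4.26-fold excess in D1, with an adjusted p of 2.53e-47, and the gene ranked 4 of 14355 from the D1 end. That separation fixes the direction of the group means, higher in D1 in 12 of 12 combinations of sex and time. The size ran from 3.38-fold in females at ZT 18 to 6.03-fold in males at ZT 6.

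Sfxn1 (ENSMUSG00000021474, chr13:54071656-54108346) was the steadiest of the 8. Its D1 libraries held 91.7 to 136.9 CPM with a median of 109.4 (110.4 ± 9.59, SD, n = 45). The D2 libraries held 24.5 to 36.6 CPM with a median of 30.7 (30.5 ± 2.50, SD, n = 46). No libraries overlapped, and the spread within a cell type was small against the gap between them. The difference was 1.85 ± 0.03 (log2, SE), 3.62-fold, with an adjusted p of 7.57e-71 and rank 6 from the D1 end. The ratio of group means stayed between 3.15 and 4.09 in all 12 combinations of sex and time.

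Isl1 (ENSMUSG00000042258, chr13:116298270-116309688), a LIM homeodomain factor that cholinergic interneurons also express, was higher in D1 but not cleanly separated. In D1 libraries it ran from 27.7 CPM through a median of 38.0 to 78.8 (39.1 ± 7.54, SD, n = 45), and leaving out the 3 libraries above lowered the maximum to 49.3 (37.8 ± 4.00, SD, n = 42). In D2 libraries it ran from 7.40 CPM through 20.6 to 38.4 (20.9 ± 7.74, SD, n = 46). The ranges overlapped, and 19 of 45 D1 libraries lay above all D2 libraries. The difference was 0.91 ± 0.09 (log2, SE), 1.88-fold, with an adjusted p of 2.34e-14, and 0.88 ± 0.09 without those 3 libraries. D1 exceeded D2 in 12 of 12 combinations of sex and time, by 1.42-fold to 2.59-fold.

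Ebf1 (ENSMUSG00000057098, chr11:44618100-45008096), a helix-loop-helix factor of the direct pathway lineage that vascular mural cells also express, went against its label. Its D1 libraries held 5.86 to 14.8 CPM with a median of 10.7 (10.8 ± 1.82, SD, n = 45), and its D2 libraries 7.29 to 15.9 CPM with a median of 12.1 (12.0 ± 1.76, SD, n = 46). The ranges overlapped almost wholly. The difference was -0.16 ± 0.05 (log2, SE), 1.11-fold higher in D2, with an adjusted p of 0.0200, and D1 exceeded D2 in 1 of 12 combinations of sex and time. This call was lost when letter C was left out (-0.15, adjusted p = 0.107) or letter D (-0.12, adjusted p = 0.286), and within either sex alone. The lowest D1 library, male ZT22 B, still held 67 reads of Ebf1. It is 1 of the 3 that stand apart, and without these the lowest D1 level was 7.36 CPM.

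Eya1 (ENSMUSG00000025932, chr1:14168953-14311035) showed no difference that could be detected. Its D1 libraries ran from 1.82 CPM through a median of 10.2 to 14.5 (10.3 ± 2.11, SD, n = 45), and its D2 libraries from 7.73 CPM through 11.2 to 13.8 (10.9 ± 1.44, SD, n = 46). The lowest value, from 15 reads, was the male D1 library ZT10 B, 1 of the 3 that stand apart. The difference was -0.09 ± 0.06 (log2, SE; adjusted p = 0.328), with a 95% interval from -0.21 to 0.03. D1 exceeded D2 in 5 of 12 combinations of sex and time.

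Gpr6 (ENSMUSG00000046922, chr10:41069977-41072290) had the largest difference of the D2-linked genes. It ran from 45.8 CPM in the lowest D2 library through a median of 92.4 to 201.9 in the highest (110.4 ± 44.9, SD, n = 46). In D1 libraries it ran from 13.5 CPM through 25.6 to 40.6 (27.1 ± 7.08, SD, n = 45). The lowest of these was male ZT18 D, 1 of the 3 libraries that stand apart, without which the minimum was 16.9 CPM. Every D2 library lay above every D1 library, though the lowest D2 and the highest D1 library were close. The difference was -2.02 ± 0.11 (log2, SE), 4.05-fold higher in D2, with an adjusted p of 2.18e-28 and rank 36 from the D2 end. With no overlap of libraries, D2 group means had to exceed D1 in 12 of 12 combinations of sex and time. The size ran from 3.08-fold in females at ZT 2 to 5.60-fold in males at ZT 10.

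Sp9 (ENSMUSG00000068859, chr2:73271926-73275771), a zinc finger factor, held 21.7 to 69.5 CPM in D2 libraries with a median of 37.1 (42.1 ± 14.1, SD, n = 46). In D1 libraries it held 12.9 to 28.0 CPM with a median of 17.8 (19.1 ± 3.60, SD, n = 45). The highest of these was male ZT22 B, 1 of the 3 libraries that stand apart, without which the maximum was 27.1 CPM. The ranges overlapped slightly, with 40 of 46 D2 libraries above all D1 libraries. The difference was -1.14 ± 0.08 (log2, SE), 2.20-fold higher in D2, with an adjusted p of 6.96e-21 and rank 154 from the D2 end. Group means were 1.76-fold to 2.76-fold higher in D2 in 12 of 12 combinations.

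Ptprm (ENSMUSG00000033278, chr17:66666848-67354491) had the smallest fold of the 6 genes that followed their label in the main fit, yet separated fully. Its fold was close to the 1.88 of Isl1, and the order of these 2 genes was not the same in each fit. Its D2 libraries held 110.3 to 197.8 CPM with a median of 137.2 (144.4 ± 26.2, SD, n = 46), and its D1 libraries 65.5 to 97.7 CPM with a median of 77.1 (78.3 ± 8.02, SD, n = 45). No libraries overlapped. The difference was -0.89 ± 0.05 (log2, SE), 1.85-fold higher in D2, with an adjusted p of 8.85e-30 and rank 219 from the D2 end. In a cell type that should be low for a gene, the level was never at 0: mean D1 levels were 24.5% of the D2 level for Gpr6, 45.3% for Sp9 and 54.2% for Ptprm. D2 levels were 23.2% of the D1 level for Slc35d3, 27.7% for Sfxn1 and 53.4% for Isl1.

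The D2 levels of 4 genes split by letter, and the size of their D1 minus D2 difference with them. Gpr6 averaged 159.7 ± 28.6 CPM in D2 libraries of letter A (SD, n = 12) and 142.8 ± 22.4 of letter B (SD, n = 10), against 69.0 ± 12.9 of letter C (SD, n = 12) and 75.6 ± 8.40 of letter D (SD, n = 12). The lowest values of letters A and B were 94.6 and 104.5 CPM and the highest of letters C and D 95.4 and 90.1 CPM, so the letters barely overlapped. Sp9 and Ptprm split the same way in D2 libraries. Sp9 averaged 56.9 ± 8.39 and 52.4 ± 8.89 CPM for letters A and B, against 31.0 ± 6.16 and 29.9 ± 2.63 for letters C and D. Ptprm averaged 173.5 ± 21.0 and 160.1 ± 9.74 CPM for letters A and B, against 121.7 ± 9.16 and 125.1 ± 10.1 for letters C and D.

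Isl1 ran the other way in the same D2 libraries. It averaged 13.4 ± 3.32 CPM for letter A (SD, n = 12) and 15.2 ± 4.39 for letter B (SD, n = 10), against 28.7 ± 4.98 for letter C (SD, n = 12) and 25.3 ± 4.02 for letter D (SD, n = 12). D2 libraries rich in the 3 D2-linked genes were thus poor in Isl1. Sfxn1 differed in the same direction as Isl1 but by far less, at 29.4 and 29.7 CPM for letters A and B against 32.2 and 30.7 for C and D. Ebf1 did too, at 10.8 and 11.6 CPM against 12.9 and 12.6. Slc35d3 did not split that way, at 13.3, 11.7, 12.3 and 14.4 CPM for letters A, B, C and D. In D1 libraries no such split appeared for Isl1, at 37.7 to 42.4 CPM over letters A to D, for Gpr6, at 25.8 to 27.9 CPM, or for Sp9, at 17.7 to 20.2 CPM. Ptprm differed there in the opposite direction to its D2 split, at 73.7 and 72.7 CPM for letters A and B against 79.9 and 84.1 for C and D. Slc35d3 did differ in D1 libraries, averaging 64.1 ± 10.1 CPM for letter A (SD, n = 12) and 67.1 ± 12.8 for B (SD, n = 9), against 47.2 ± 8.50 for C (SD, n = 12) and 49.0 ± 11.5 for D (SD, n = 11). Letters were not tested against each other, and the part of depth in these values was not tested.

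**Figure D2:**
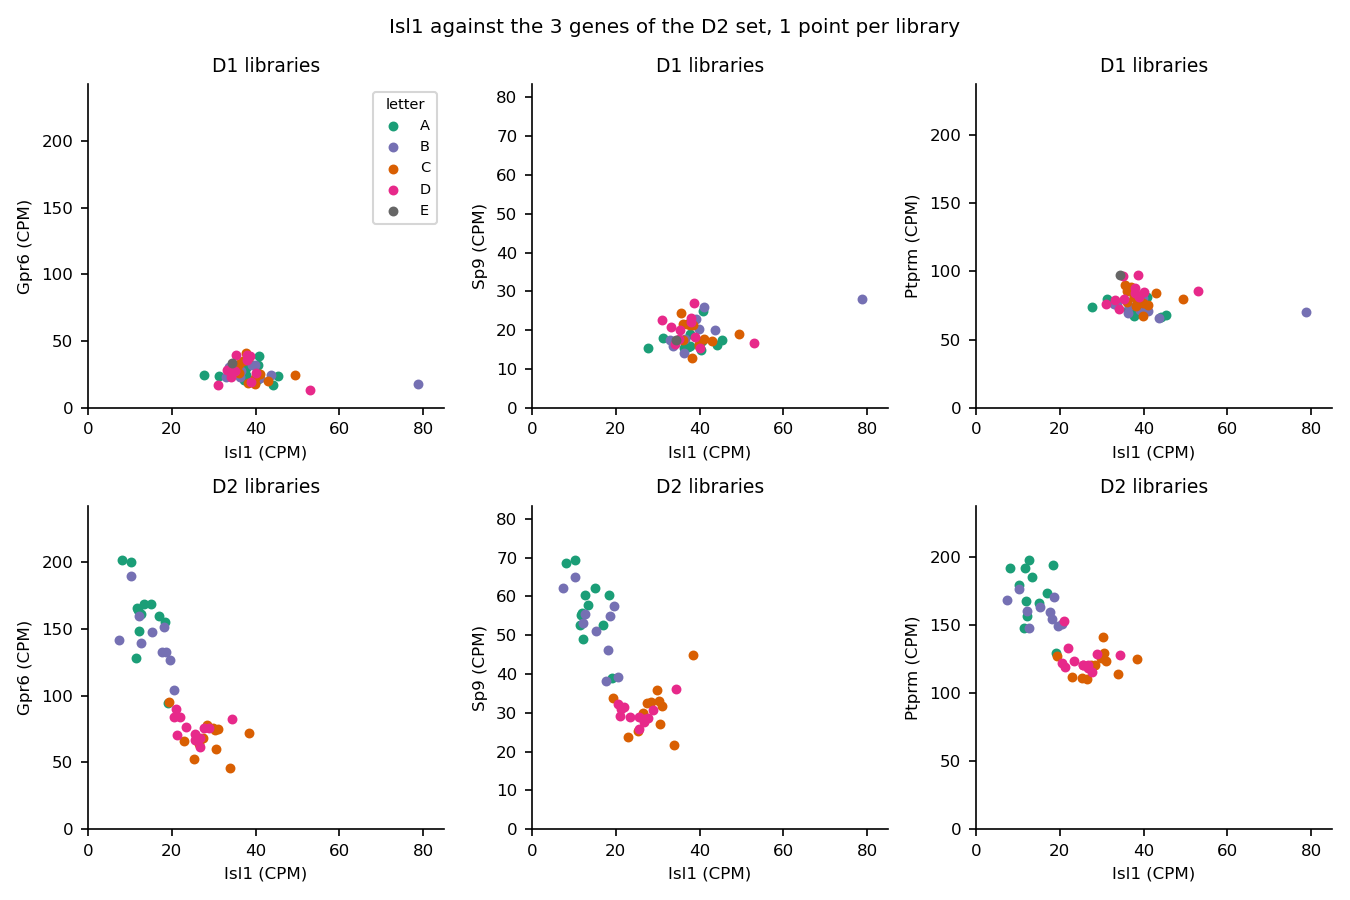
Level of Isl1 in CPM (horizontal) against Gpr6, Sp9 and Ptprm in CPM (vertical), 1 point per library and the letter as colour, in 45 D1 libraries (top) and 46 D2 libraries (bottom). In D2 libraries letters A and B lie at low Isl1 and high Gpr6, Sp9 and Ptprm, and letters C and D at the opposite corner, while D1 libraries form 1 cloud apart from the ZT22 B library at 78.8 CPM of Isl1.

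With the mean of each letter taken out, deviations from group means in the 46 D2 libraries still correlated at 0.65 to 0.81 among Gpr6, Sp9 and Ptprm. Those of Isl1 with the same 3 genes correlated at -0.49 to -0.41. Sfxn1 and Ebf1 gave similar values with Gpr6 (-0.44 and -0.41) and Ptprm (-0.41 and -0.41), and -0.14 and -0.27 with Sp9. With the same 3 genes Slc35d3 gave -0.09 to 0.03 and Eya1 -0.37 to -0.21. In the 45 D1 libraries the values were 0.45 to 0.60 among the 3 genes and -0.39 to 0.06 for Isl1 with them. The other D1-linked genes varied in sign with them there. Values were -0.09 to 0.53 for Slc35d3, 0.20 to 0.48 for Sfxn1, -0.11 to 0.34 for Ebf1 and -0.53 to -0.25 for Eya1. These are descriptions of libraries, in which the genes share depth and tissue, and carry no test.

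Within each letter the direction held for all 6 genes that followed their label, and each passed the adjusted threshold in each of letters A to D, in fits that called 46.1%, 8.41%, 55.8% and 50.4% of all genes. Gpr6 differed by -2.60, -2.50, -1.32 and -1.40 on the log2 scale for letters A, B, C and D. Sp9 differed by -1.69, -1.36, -0.71 and -0.57, and Ptprm by -1.24, -1.14, -0.60 and -0.55. For the D1-linked genes, Isl1 differed by 1.50, 1.53, 0.46 and 0.58, Slc35d3 by 2.26, 2.50, 1.94 and 1.80, and Sfxn1 by 1.93, 1.99, 1.74 and 1.79. The difference was thus larger for letters A and B than for C and D in each of these 6 genes, least so in Sfxn1. Eya1 passed in no letter (-0.26 to -0.02), and Ebf1 in letter D alone (-0.23).

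**Figure D3:**
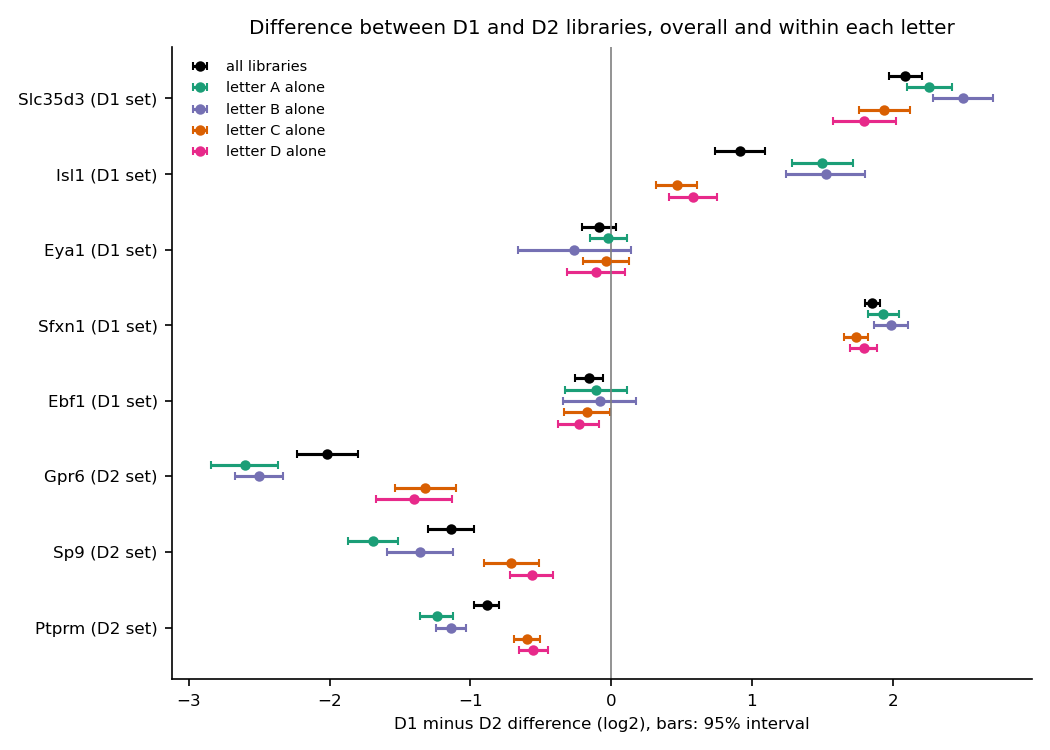
D1 minus D2 difference of each gene on the log2 scale with its 95% interval, from all 91 libraries (black) and within each letter (colours); points right of 0 are higher in D1. Slc35d3, Isl1 and Sfxn1 lie right of 0 and Gpr6, Sp9 and Ptprm left of 0 in each fit, while intervals of Eya1 span 0 in all.

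Whether the levels followed the time of day was asked within each cell type, by fitting a 24 h wave and taking its peak above the mean as the amplitude. None of the 8 genes passed in D1 libraries, where 0.495% of all genes did, and none in D2 libraries, where 2.94% did. By unadjusted p under 0.05 it was 1 gene in each, Slc35d3 in D1 and Sfxn1 in D2, in edgeR's test, against 12.6% and 13.1% of all genes. DESeq2 called 0 of 8 in both, against 1.5% of all genes in D1 and 4.66% in D2. Limma voom called 0 of 8 in D1, against 4.99% of all genes, and 2 of 8 in D2, Isl1 and Sfxn1, against 21.2%. With the letter as a block the D2 test called 22.3% of all genes and again 0 of these 8 (lowest adjusted p = 0.0678, Sfxn1).

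**Figure D4:**
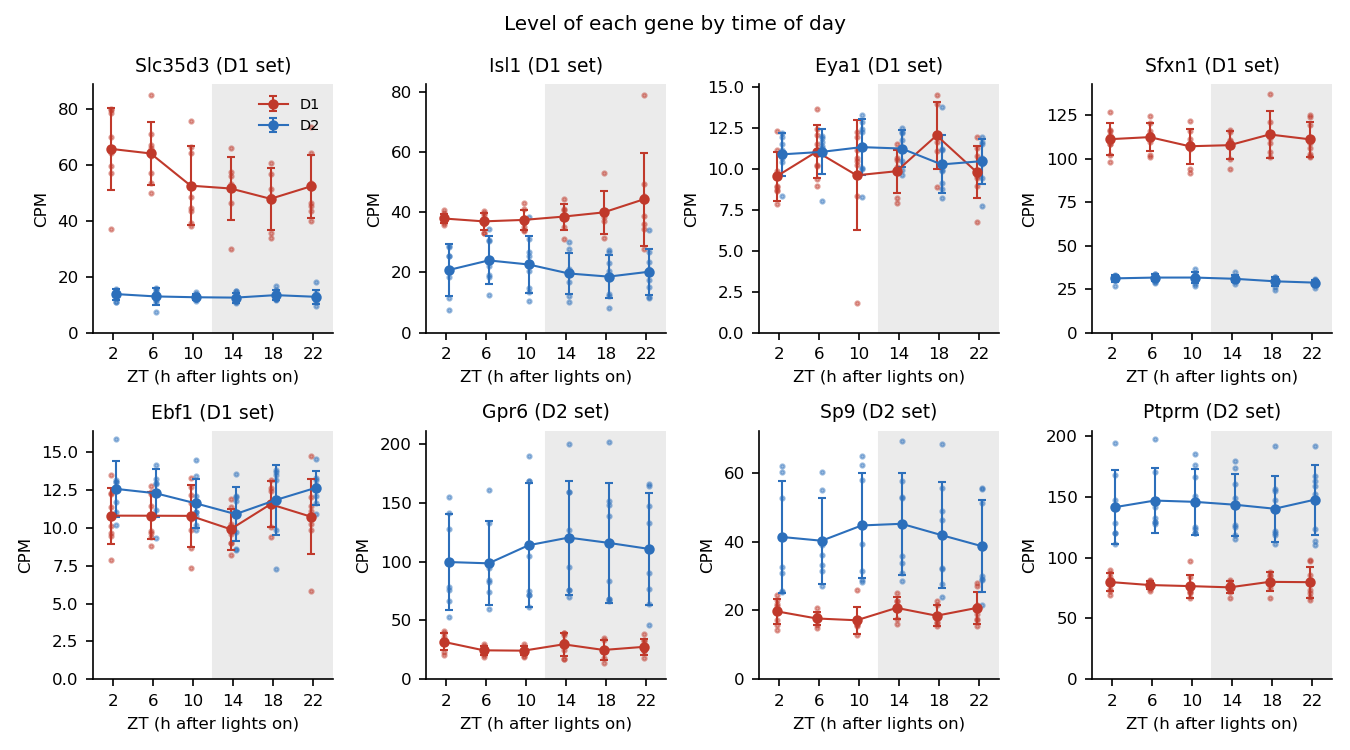
Level of each gene in CPM against ZT in h, small points for libraries, large points and bars for mean ± SD in D1 (red) and D2 (blue) libraries, 6 to 8 libraries per point, with the dark phase shaded. The lines are nearly flat, and the D1 level of Slc35d3, from 65.6 CPM at ZT 2 to 47.8 CPM at ZT 18, spans the widest ratio.

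Slc35d3 in D1 libraries had the largest amplitude, 0.22 ± 0.07 (log2, SE), peaking near ZT 4.2 (adjusted p = 0.220), against a median amplitude of 0.09 over all genes in D1 libraries. Its level was 65.6 ± 14.7 CPM at ZT 2 (SD, n = 8), 64.0 ± 11.1 at ZT 6 (SD, n = 8), 52.5 ± 14.2 at ZT 10 (SD, n = 8), 51.5 ± 11.3 at ZT 14 (SD, n = 7), 47.8 ± 11.0 at ZT 18 (SD, n = 6) and 52.2 ± 11.4 at ZT 22 (SD, n = 8). The highest mean was 1.37 times the lowest, and the ranges of those times overlapped. With depth as a covariate this gene passed (0.24 ± 0.06, adjusted p = 0.0405), in a fit that called 2.19% of all genes. In D2 libraries its amplitude was 0.05 ± 0.05, at levels of 12.5 to 13.8 CPM over the 6 times. The difference in rhythm between the cell types did not pass (adjusted p = 0.593).

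Isl1 had its highest D1 mean at ZT 22, 44.2 ± 15.5 CPM (SD, n = 8), which held the library at 78.8 CPM. Its other D1 means were 36.9 to 39.9 CPM. The D1 amplitude of 0.10 ± 0.05 became 0.03 ± 0.04 without the 3 libraries that stand apart. In D2 libraries Isl1 averaged 24.0 ± 7.96 CPM at ZT 6 (SD, n = 7) and 18.6 ± 7.07 at ZT 18 (SD, n = 8), its extremes. Its amplitude there was 0.17 ± 0.12 in edgeR's fit, and limma voom, which called it, gave a larger one.

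Sfxn1 moved by little: its D2 mean was highest at ZT 10, 31.6 ± 3.34 CPM (SD, n = 8), and lowest at ZT 22, 28.7 ± 1.61 CPM (SD, n = 8). Its amplitude was 0.07 ± 0.03 in D2 libraries (adjusted p = 0.312) and 0.03 ± 0.03 in D1 libraries. Gpr6 in D2 libraries ran from 98.6 ± 35.7 CPM at ZT 6 (SD, n = 7) to 120.5 ± 48.6 at ZT 14 (SD, n = 8), a gap within the spread. In D1 libraries it ran from 24.2 ± 4.00 CPM at ZT 10 (SD, n = 8) to 31.7 ± 7.19 at ZT 2 (SD, n = 8).

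For the remaining genes the ratio of the highest to the lowest time was 1.21 in D1 and 1.17 in D2 for Sp9, 1.06 and 1.05 for Ptprm, 1.26 and 1.10 for Eya1, and 1.17 and 1.16 for Ebf1. With the 6 means ranked by size, 0 of 5 steps between neighbours in rank exceeded their spread, for each of the 8 genes in each cell type. Ranking by size makes such steps small, so this cannot show whether times that follow each other on the clock differed. Amplitudes ran from 0.03 to 0.22 in D1 and from 0.02 to 0.17 in D2, with upper 95% bounds of at most 0.36 in D1 and 0.40 in D2. These bounds come from edgeR fits without the letter. They are no ceiling over all methods, since limma voom gave Isl1 in D2 libraries a larger amplitude, listed in the closing section. With the letter as a block the D2 amplitude of Gpr6 was 0.10 ± 0.04 (log2, SE), against 0.15 ± 0.12 without it. Rhythms that differed between the cell types were called for 0.0139% of all genes and for 0 of these 8 by edgeR, of which 0 had an unadjusted p under 0.05, against 8.46% of all genes. Blocking the letter within cell type made it 3.24% of all genes and again 0 of these 8.

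**Figure D5:**
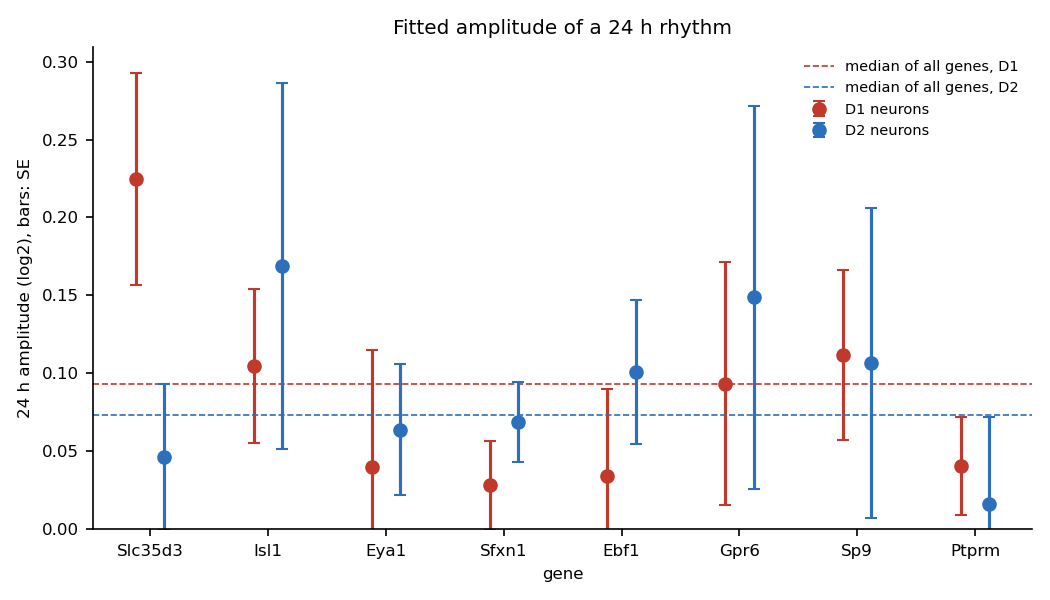
Fitted amplitude of a 24 h rhythm on the log2 scale for each gene in D1 (red) and D2 (blue) libraries, with bars for the SE and dashed lines for the median of all genes. Slc35d3 in D1 libraries, at 0.22, lies farthest above the median line of its cell type, which is at 0.09.

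Sex differences were asked last. None of the 8 genes differed between males and females in D1 libraries, where 0.0418% of all genes were called, or in D2 libraries, where 0.216% were, and 0 of 8 had an unadjusted p under 0.05 in either, against 15.5% and 3.59% of all genes. The lowest adjusted p was 0.402 for Sp9 in D1 libraries, at 19.9 ± 4.08 CPM in males (SD, n = 22) and 18.3 ± 2.94 in females (SD, n = 23). Its male minus female difference there was 0.13 ± 0.08 (log2, SE), with a 95% interval from -0.02 to 0.28. DESeq2 called 0 of 8 in both cell types, against 0.39% of all genes in D1 and 0.307% in D2, and gave no adjusted p for 6 of the 8 in D1. With the letter as a block 7.26% of all genes were called in D1 libraries (0.23% without the 3 libraries that stand apart) and 9.45% in D2 libraries, and 0 of these 8 in each.

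The differences between the sexes ran from -0.13 (Eya1) to 0.13 (Sp9) in D1 libraries and from -0.18 (Isl1) to 0.11 (Gpr6) in D2 libraries. The intervals were widest for the genes whose D2 levels split by letter: -0.50 to 0.15 for Isl1 and -0.23 to 0.45 for Gpr6. Sfxn1 was bounded most closely in D2 libraries, at -0.07 to 0.07. These intervals come from fits without the letter. With the letter as a block the Gpr6 difference in D2 libraries was 0.12 ± 0.06 (log2, SE), against 0.11 ± 0.17 without it. Gpr6 averaged 114.1 ± 42.5 CPM in male and 106.8 ± 47.9 in female D2 libraries (SD, n = 23 each), and Slc35d3 averaged 56.8 ± 13.8 in male (SD, n = 22) and 55.3 ± 13.6 in female D1 libraries (SD, n = 23). Whether the D1 minus D2 difference itself depended on sex was also tested. It passed for 0% of all genes, of which 908 had an unadjusted p under 0.05, and for 0 of the 8, with Isl1 the nearest at 0.25 ± 0.18 (log2, SE; adjusted p = 0.937).

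Genes with the most similar pattern were sought for Slc35d3 and Gpr6 by Pearson correlation of log2(CPM + 1) over the 24 group means. The closest to Slc35d3 was ENSMUSG00000021478 (r = 0.997), and the closest to Gpr6 was ENSMUSG00000020178 (r = 0.996). These means comprise 12 D1 and 12 D2 groups, so genes that split by cell type score high, and no test was made.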

How the data were processed

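Ribosome-bound mRNA of D1 and D2 neurons was sequenced in 91 libraries. Per the submitters' processing notes, FastQC 0.11.7, HISAT2 and HTSeq 0.10.0 were used, and the builds GRCm38 and GRCh38 are named without their roles. The deposited values are raw counts per gene, which the authors did not normalise. They are labelled as filtered by log CPM, so shares of all genes and library totals refer to the 14355 genes kept. Gene names of the members are paired with their Ensembl identifiers by the description of the set; 0 of 49997 RefSeq entries carry such identifiers, so marker lists and lists of other transcription factors were not scored. The members and lists were chosen with earlier results of these data known.

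Counts were fitted in R 4.3.3 with edgeR 4.0.16 (TMM, quasi-likelihood F-test, Benjamini-Hochberg adjustment over 14355 genes, threshold 0.05). The model held a separate mean, cosine and sine (24 h period) for each cell type in each sex, and sexes were weighted alike. The named genes are all 8 members. Intervals are 1.96 SE wide on each side; amplitude SEs take the cosine and sine as uncorrelated and are rough near 0. Scripts were tested on simulated data. Alternatives were RLE size factors, filterByExpr, DESeq2 1.42.0, voom with quality weights (limma 3.58.1), a letter block, each letter left out, each sex alone, depth as a covariate, time as a factor of 6 levels and leaving out 3 libraries. In the D1 minus D2 fit filterByExpr kept all 14355 genes, so that alternative changed nothing there. Fits within each letter, made without time terms, and the block without those 3 libraries were added after the data were seen.

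In D2 libraries 243 of 243 pairs with the same letter, taken across groups, had deviations that correlated above 0.1 (100%, median 0.74, lowest 0.22). In D1 libraries 156 of 223 did (70.0%, lowest -0.63). Pairs with different letters were not compared, so these values cannot tell a pairing by letter from a split that several letters share. The main fits left the letter out in both cell types. The SE of the Gpr6 level difference was 0.11 in the main fit and 0.07 with the letter blocked within cell type. No library was a copy of another of its group (lowest mean chi-square per gene 4.24 over 129 pairs). The labels do not say that pools of a group share no animals or batch, so p-values measure the spread between these libraries.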

Additional observations from a re-analysis of the deposited data

Results flagged for a closer look

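In 5 of 96 combinations of gene, cell type and time, both sexes together, 1 library lay far from the others; chance flags about 1 in 20. Isl1 was at 78.8 CPM (902 reads) in the male D1 library ZT22 B, against 27.7 to 49.3 CPM in the others. Eya1 was at 1.82 CPM (15 reads) and Sp9 at 26.0 CPM (214 reads) in the male D1 library ZT10 B, against 8.38 to 12.2 and 12.9 to 17.6 CPM. These 3 values come from libraries with many genes at 0. Eya1 was at 8.03 CPM in the male D2 library ZT6 C, against 11.0 to 12.1 CPM. Sfxn1 was at 26.9 CPM in the male D2 library ZT2 D, against 31.4 to 33.0 CPM.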

How the results depend on the processing

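The direction and the call of the D1 minus D2 difference of Slc35d3, Sfxn1, Isl1, Gpr6, Sp9 and Ptprm were the same in each alternative run, and no value that passed the test changed sign. Of 394 alternative values of level differences 24 changed sign, each of a difference that did not pass, such as the sex difference of Isl1 in D1 (-0.02 without the 3 libraries) and of Gpr6 in D2 (-0.04 with depth). Fitted peaks that did not pass moved by over 6 h in 6 of 288, such as that of Ebf1 in D1 to ZT 8.1 without letter A. With the letter as a replicate block within cell type the differences were 2.11 for Slc35d3, 1.01 for Isl1, -1.95 for Gpr6 and -0.15 for Ebf1 (adjusted p = 0.00778), and no block changed a call of the 8 genes. Ebf1 lost its call in 7 settings: with 1 letter left out it ranged from -0.17 to -0.12, lost without C or D; it was -0.19 in males alone, -0.11 in females alone, and -0.11, -0.083 and -0.17 within letters A, B and C. For the rhythm in D1, 1 of 8 was called with depth as a covariate (Slc35d3). For the rhythm in D2, 2 of 8 were called by limma voom: Isl1 (0.35, adjusted p = 0.0124) and Sfxn1 (0.09, adjusted p = 0.0150). The causes were not tested.

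Counts over all genes depended far more on the settings. The D1 minus D2 count of 2770 became 5471 with a letter block, 6572 with the block within cell type, 4400 with depth as a covariate, 8248 with limma voom, 6912 without letter A and 1767 without D, and 1207 to 8004 within letters and 1494 and 1686 within males and females. The share of those calls higher in D1 was 48.9%, and 59.6%, 57.3% and 59.5% with the block, the block within cell type and depth. The D1 rhythm count of 71 became 162 with the block, 177 without the 3 libraries that stand apart, 293 with both, 314 with depth, 215 with DESeq2, 717 with limma voom, 26 with time as a factor and 13 to 54 with 1 letter left out. The D2 rhythm count of 422 became 3198 with the block, 1076 with depth, 669 with DESeq2, 3046 with limma voom, 91 with time as a factor and 55 to 261 with 1 letter left out. The sex count of 6 in D1 became 1042 with the block, 33 with the block without those 3 libraries, 2 to 294 with 1 letter left out, 56 with DESeq2 and 13 with depth. The sex count of 31 in D2 became 1357 with the block and 7 to 28 with 1 letter left out. The count of 2 for the difference in rhythm became 76 with the block, 465 where it was set within each cell type, 30 with the block but not the 3 libraries, 1 without those libraries and 0 to 7 with 1 letter left out. The count of 0 for the sex dependence of the D1 minus D2 difference became 1 with either block.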
